A study of Homo sapiens with 18 samples.

Results

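The circadian clock genes described here were PER1, PER2, PER3, CRY1, CRY2, CLOCK, ARNTL (also called BMAL1), NR1D1, NR1D2 and BHLHE40, the 10 rows of the RNA-seq count table that carry these gene names, out of 23622 genes in the table. All 10 passed the filter on low counts that left 15760 genes to test. RNA was measured in A2780 cells, a p53-proficient human ovarian cancer line that is sensitive to cisplatin, and in Acis cells, the resistant line derived from A2780 by long exposure to rising cisplatin. Each line was sampled untreated (control) and after 3 h in fresh medium with 200 µM cisplatin, a drug that forms DNA adducts which block RNA polymerase, with 3 libraries in each of the 4 groups. Acis cells also received 1 µM cisplatin every 3 passages in culture, so the Acis control carries that history. The replicates were triplicate wells of 1 line each, so p-values measure the spread between these wells. It is not stated whether control wells also received fresh medium, so a response to medium and a response to cisplatin cannot be told apart. No synchronisation of the cells is described, and they were sampled at 1 time, so the values are levels in bulk cultures and say nothing of rhythm. Fewer cells with a transcript and less transcript per cell cannot be told apart in these bulk libraries.

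The clock is a feedback loop of transcription. CLOCK and ARNTL form a dimer that binds E-boxes and switches on the PER, CRY, NR1D and BHLHE40 genes. The PER and CRY proteins then repress the dimer, BHLHE40 competes for the same E-boxes, and the nuclear receptors NR1D1 and NR1D2 (REV-ERBα and REV-ERBβ) repress ARNTL through response elements that the ROR receptors also bind.

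Library totals ranged from 4130644 to 5072216 counts in genes. Of 8 markers of ovarian carcinoma and epithelium, 3 had a row in the table, and their summed normalised counts were 34.8 to 51.5 in A2780 control and 136 to 159 in Acis control. KRT18 averaged 25.6 and 144 there, while KRT8 went the other way (15.7 and 4.07, log2 fold change -1.95, called lower in Acis), and EPCAM, which was not tested, averaged 3.56 and 0.737. PAX8, WT1, MUC16, CDH1 and ESR1 were not among the rows, and EPCAM stayed at or below 5.83 normalised counts in every library. Of 9 markers of leukocytes, endothelium, red cells and fibroblasts, 4 had a row. Their sum was 1595 to 1747 in untreated and 1235 to 1430 in treated A2780, against 11.7 to 27.8 in untreated and 19.8 to 27.6 in treated Acis, and the A2780 sums came mostly from the collagen genes COL1A1 and COL1A2. In Acis, COL1A2 was at 0 in all control libraries, and COL1A1 averaged 16.4 in control and 12.7 in cisplatin libraries beside 3.66 and 6.55 for DCN and 0.712 and 4.25 for CD68. PTPRC, CD3E, PECAM1, VWF and HBB were not among the rows. The part of these line differences in the clock gene values was not tested.

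The promoters hold the elements through which the loop acts, so windows of 250 bases before to 50 bases after a start were read from RefSeq (GRCh38.p14) for all 10 genes, 15 windows in total. The E-box CACGTG, which reads the same on both strands, was present in 3 of the 15 windows, from PER1, NR1D2 and BHLHE40, against 7.26% of the 35116 promoter windows in the RefSeq table. The D-box TTATGTAA, searched on both strands and bound by the clock outputs DBP, TEF and NFIL3, was present in 2 of the 15, from PER3 and NR1D2, against 0.886% of windows. The core AGGTCA of ROR and REV-ERB elements, on both strands, was present in 4 of the 15, from PER1, CRY2 and ARNTL, against 13.8% of windows. The full cAMP response element TGACGTCA was in none of them, against 1.85% of windows, and its start TGACG, which that element contains, was in 7 of the 15 (from PER2, CRY1, CRY2, CLOCK and NR1D2) against 24.6%. These matches are a description of the letters in short windows and not of binding.

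PER1 and BHLHE40 are shown because both rose with cisplatin in A2780 and hold an E-box, and NR1D2 because it holds the most marked elements. Capitals mark CACGTG, TTATGTAA or its reverse complement, and AGGTCA or its reverse complement. NR1D1 also rose in A2780, and its window, not shown, held none of the elements searched.
PER1 (chr17:8152355-8152654, minus strand): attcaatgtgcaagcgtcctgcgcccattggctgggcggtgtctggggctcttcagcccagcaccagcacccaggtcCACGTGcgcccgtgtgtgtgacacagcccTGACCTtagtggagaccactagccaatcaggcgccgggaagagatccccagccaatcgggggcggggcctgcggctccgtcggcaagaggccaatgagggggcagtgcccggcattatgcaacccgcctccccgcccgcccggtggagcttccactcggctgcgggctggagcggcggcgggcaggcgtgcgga
BHLHE40 (chr3:4979187-4979486, plus strand): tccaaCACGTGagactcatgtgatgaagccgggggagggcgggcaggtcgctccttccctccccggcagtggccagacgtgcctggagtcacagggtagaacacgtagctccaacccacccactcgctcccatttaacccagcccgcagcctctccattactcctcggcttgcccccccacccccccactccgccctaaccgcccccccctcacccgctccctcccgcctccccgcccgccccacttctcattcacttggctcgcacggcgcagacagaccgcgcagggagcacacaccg
NR1D2 (chr3:23945871-23946170, plus strand): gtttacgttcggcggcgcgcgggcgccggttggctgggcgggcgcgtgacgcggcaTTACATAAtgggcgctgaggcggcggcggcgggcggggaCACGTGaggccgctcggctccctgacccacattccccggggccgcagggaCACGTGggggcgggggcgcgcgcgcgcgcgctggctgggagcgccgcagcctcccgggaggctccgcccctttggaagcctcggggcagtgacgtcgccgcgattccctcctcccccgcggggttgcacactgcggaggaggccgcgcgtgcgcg
In PER1 the E-box starts 173 bases before the RefSeq start, and in BHLHE40 245 bases before it. The NR1D2 window shown belongs to a RefSeq start downstream of the start of its canonical transcript (chr3:23945286). E-boxes start 155 and 105 bases before that downstream start, with the D-box 194 bases before it. The NR1D2 window at the canonical start held none of the marked elements.

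PER3 is shown for its D-box, ARNTL for its ROR and REV-ERB core, and CLOCK because its RNA changed most with cisplatin, with the same marking.
PER3 (chr1:7784041-7784340, plus strand): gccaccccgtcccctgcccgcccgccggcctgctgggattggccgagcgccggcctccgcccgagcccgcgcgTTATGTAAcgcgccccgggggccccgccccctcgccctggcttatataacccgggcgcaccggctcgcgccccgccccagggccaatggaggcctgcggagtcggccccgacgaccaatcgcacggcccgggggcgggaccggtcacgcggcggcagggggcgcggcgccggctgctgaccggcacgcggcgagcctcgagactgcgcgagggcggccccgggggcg
ARNTL (chr11:13277540-13277839, plus strand): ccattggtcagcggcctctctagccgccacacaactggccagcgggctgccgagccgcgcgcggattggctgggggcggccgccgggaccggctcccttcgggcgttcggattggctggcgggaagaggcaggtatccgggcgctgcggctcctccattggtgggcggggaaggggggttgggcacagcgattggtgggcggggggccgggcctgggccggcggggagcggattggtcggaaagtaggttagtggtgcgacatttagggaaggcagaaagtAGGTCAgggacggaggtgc
CLOCK (chr4:55546860-55547159, minus strand): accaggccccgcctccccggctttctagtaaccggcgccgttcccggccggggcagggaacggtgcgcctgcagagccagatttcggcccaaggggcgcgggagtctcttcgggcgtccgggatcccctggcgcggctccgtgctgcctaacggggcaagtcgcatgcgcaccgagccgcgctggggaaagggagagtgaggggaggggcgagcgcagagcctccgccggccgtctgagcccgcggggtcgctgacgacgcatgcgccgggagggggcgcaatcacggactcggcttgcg
The D-box of PER3 starts 177 bases before the start, and the core in ARNTL starts at base 32 of the transcript. The CLOCK window held none of the marked elements, which says only that these letters are not in this window.

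The 10 genes differed widely in level when set per length. In A2780 control, BHLHE40 stood highest at 24.5 ± 0.77 counts per kilobase of exon and 1000000 counts in genes (SD, n = 3), followed by CRY1 at 18.3 ± 0.69, PER1 at 17.6 ± 1.1 and CLOCK at 16.7 ± 0.38. The libraries of CRY1 and PER1 overlapped, as did those of PER1 and CLOCK. PER3 came next at 13.9 ± 0.62, then PER2 at 10.7 ± 0.31 and NR1D1 at 10.5 ± 0.21, whose libraries also overlapped. CRY2 stood at 9.30 ± 0.41 and NR1D2 at 5.43 ± 0.61. ARNTL, which forms the E-box dimer with CLOCK, was last by a wide gap at 0.414 ± 0.022, and was last in all 4 groups, with 8 to 19 raw counts in each library. In Acis control the order was BHLHE40 at 27.0 ± 1.1, PER1 at 22.4 ± 1.2, NR1D1 at 20.6 ± 1.2 and CLOCK at 20.5 ± 1.1, so NR1D1 ranked 3 there against 7 in A2780 control. The libraries of NR1D1 and CLOCK overlapped in Acis control, as did those of CLOCK and CRY1.

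**Figure D1:**
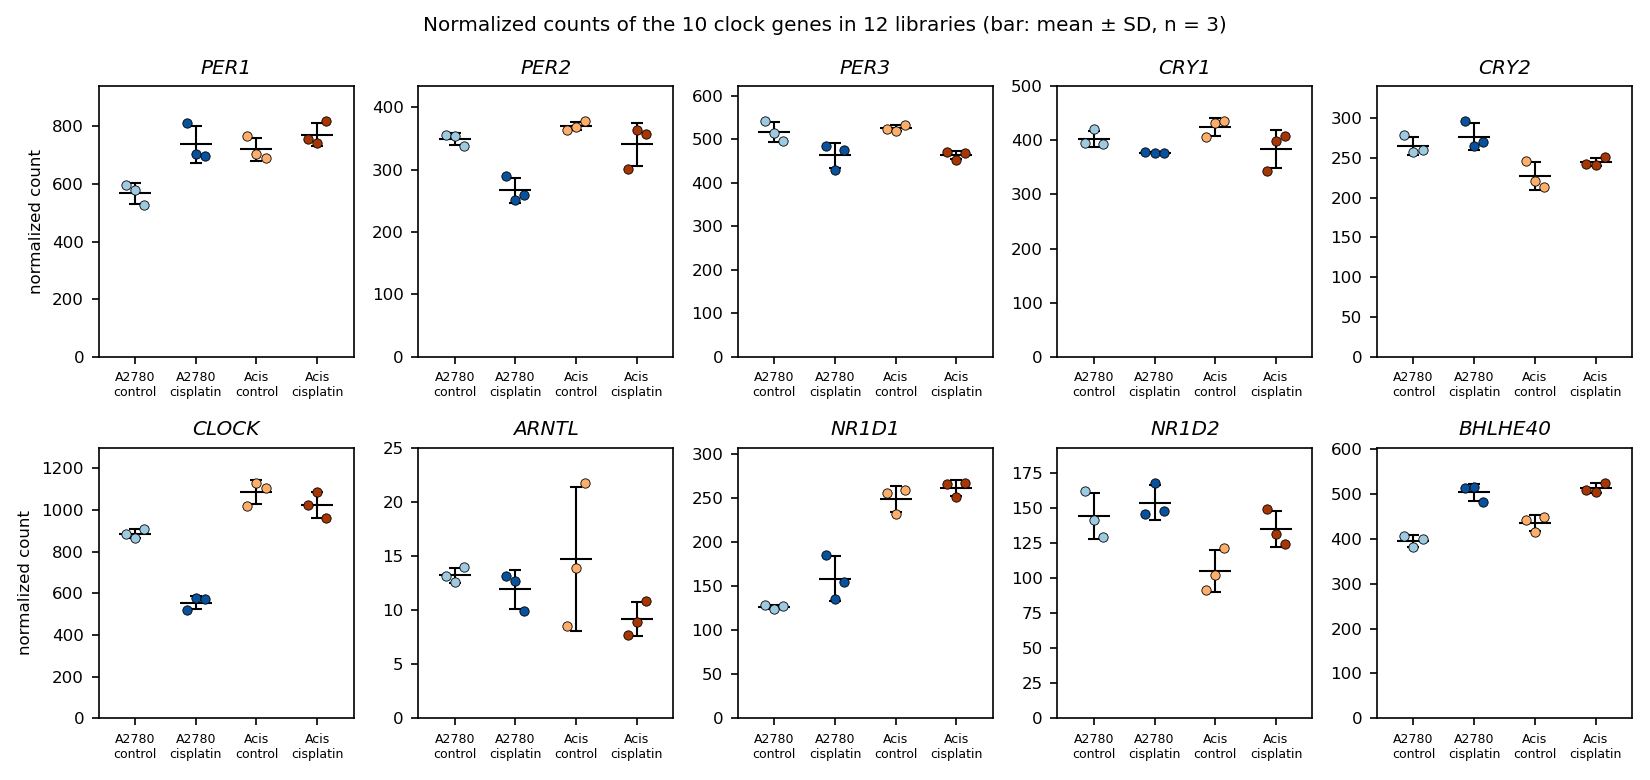
Normalised counts (vertical axes, each from 0) of the 10 clock genes in the 12 libraries, by group, with points for libraries and bars for mean ± SD of 3. CLOCK in A2780 cisplatin sits between 519 and 576, below the other 9 libraries, and ARNTL stays at or under 21.7 in all 12.

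The paralogues of a family were not equal partners. PER1 made up 41.7% ± 0.70 (SD, n = 3) of the per-length sum of the PER genes in A2780 control and 52.6% ± 1.3 in A2780 cisplatin, with no overlap between libraries. PER2 went from 25.4% ± 0.53 to 18.8% ± 0.087 of that sum. In Acis, PER1 made up 46.8% ± 1.6 in control and 51.1% ± 1.2 in cisplatin libraries, again with no overlap. CRY1 supplied the larger part of the CRY sum in every library, with 66.3% ± 1.6 in A2780 control, 63.9% ± 1.3 in A2780 cisplatin and 70.8% ± 2.4 in Acis control. NR1D1 supplied 65.9% ± 2.4 of the NR1D sum in A2780 control and 83.9% ± 1.9 in Acis control. These shares depend on the exon length used, and with the longest transcript in place of the union of exons the PER1 share in A2780 control was 47.4%.

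**Figure D2:**
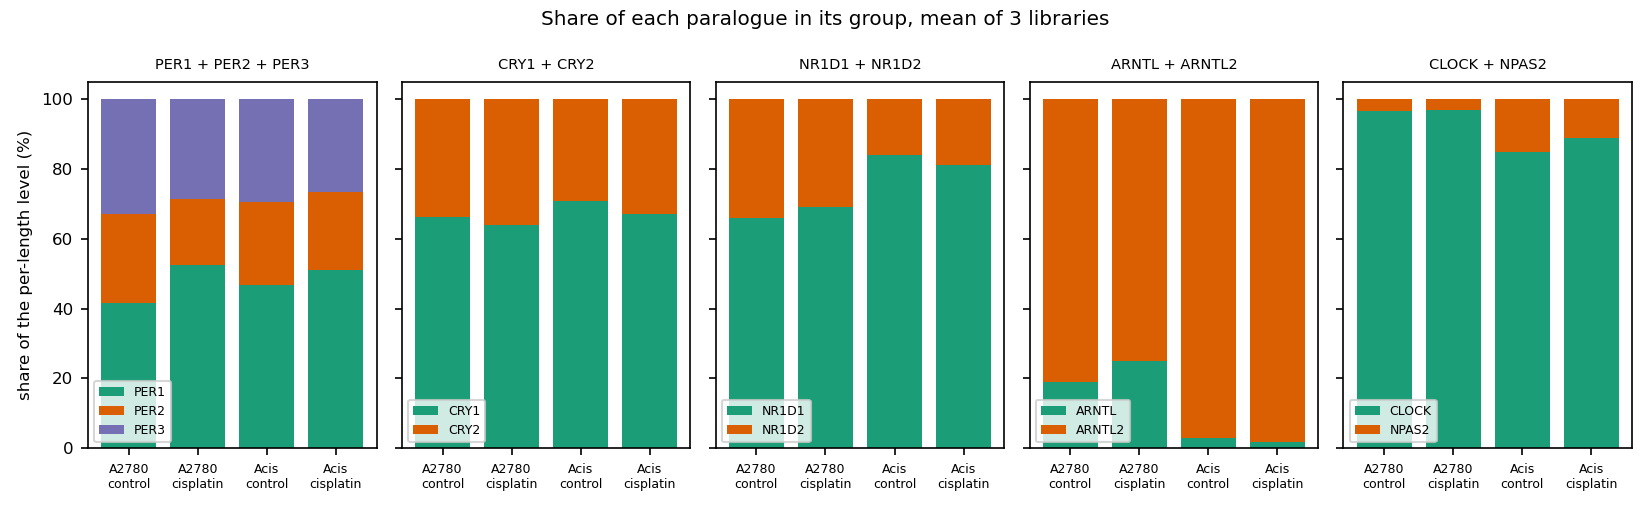
Share of each paralogue (vertical axis, percent) in the summed per-length level of its family, for the 4 groups, as means of 3 libraries. PER1 makes up 41.7% of the PER sum in A2780 control and 52.6% in A2780 cisplatin, and ARNTL2 makes up 81.0% of the ARNTL pair in A2780 control and 97.2% in Acis control.

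Cisplatin moved the clock genes of A2780 in both directions. Treatment raised PER1, BHLHE40 and NR1D1, and lowered CLOCK, PER2 and PER3, which makes 3 of 10 higher and 3 of 10 lower at an adjusted p under 0.05 (edgeR quasi-likelihood test, Benjamini-Hochberg over 15760 genes). Among all tested genes 21.2% were higher and 28.2% lower, so the clock genes changed at about the background rate. The split moved with the scaling: 42.9% of all calls were higher with TMM scaling and 63.4% with library totals alone, which left 4 clock genes higher and 2 lower, as CRY2 gained a call (0.18) and PER3 lost its own. None of the 10 passed an absolute log2 fold change of 1, against 5.62% of all tested genes. Their median log2 fold change was -0.02, and that of all tested genes was -0.01.

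CLOCK, the activator with histone acetyltransferase activity (chr4:55427903-55546909), changed most. Its normalised counts were 885, 866 and 907 in A2780 control and 519, 576 and 571 in A2780 cisplatin. The groups lay far apart, and the log2 fold change was -0.67 ± 0.05 (SE, edgeR adjusted p = 4.1e-11), a level 0.627 times that of control. Of all tested genes, 5.76% had a lower fold change.

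PER1, a repressor known to be induced quickly by many stimuli (chr17:8140472-8156506), had 596, 578 and 526 normalised counts in A2780 control and 811, 703 and 696 in A2780 cisplatin. All treated libraries stood above all control libraries, at a log2 fold change of 0.38 ± 0.06 (edgeR adjusted p = 6.6e-06). PER2, its paralogue (chr2:238244044-238290102), went the other way, from 356, 353 and 338 to 290, 251 and 259. Its log2 fold change was -0.39 ± 0.07 (edgeR adjusted p = 4.1e-05), so paralogues with the same role in the loop moved apart. PER3 (chr1:7784291-7845177) had 542, 516 and 495 in control and 484, 431 and 475 in cisplatin libraries. Its log2 fold change of -0.16 ± 0.05 (edgeR adjusted p = 0.0098) was the weakest call: the call was lost in DESeq2 (adjusted p = 0.076), with library totals as the only scaling (log2 fold change -0.05), with a mean of at least 50 counts (-0.10), and without A2780 control replicate 1 (-0.13) or A2780 cisplatin replicate 2 (-0.11).

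BHLHE40, a repressor that also responds to stress and hypoxia (chr3:4979437-4985323), had 406, 381 and 399 normalised counts in A2780 control and 513, 515 and 481 in A2780 cisplatin. The groups did not overlap, and the log2 fold change was 0.35 ± 0.05 (edgeR adjusted p = 2.0e-06). NR1D1 (chr17:40092793-40100589) had 128, 124 and 128 in control and 186, 135 and 155 in cisplatin libraries. Its log2 fold change of 0.33 ± 0.10 (edgeR adjusted p = 0.0073) rested on A2780 cisplatin replicate 1, without which it was 0.19 (adjusted p = 0.15), and DESeq2 gave an adjusted p of 0.059. NR1D1 overlaps THRA on the opposite strand, and the counting was strand-specific.

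The other 4 genes were not called. CRY1 (chr12:106991364-107093549), the stronger of the cryptochrome repressors, averaged 403 normalised counts in A2780 control and 377 in A2780 cisplatin (log2 fold change -0.10 ± 0.06). CRY2 (chr11:45847118-45883248) averaged 265 and 277 (0.06 ± 0.07). NR1D2 (chr3:23945286-23980617) averaged 145 and 154 (0.08 ± 0.10). ARNTL (chr11:13276652-13387266) averaged 13.2 and 11.9 (-0.14 ± 0.31), with the largest SE of the 10 genes.

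In Acis fewer of the clock genes were called with the same treatment. BHLHE40 and NR1D2 rose and PER3 fell, 2 of 10 higher and 1 of 10 lower, against 9.35% higher and 12.4% lower among all tested genes. None passed an absolute log2 fold change of 1, against 2.01% of all tested genes. Of all calls 42.9% were higher with TMM scaling and 62.4% with library totals alone, under which 2 clock genes were higher and 0 lower. DESeq2 called none of the 10 in either direction, with 4 at an unadjusted p under 0.05, the same number as in edgeR. BHLHE40 had 441, 416 and 449 normalised counts in Acis control and 510, 503 and 525 in Acis cisplatin, a log2 fold change of 0.24 ± 0.05 (edgeR adjusted p = 0.00095, DESeq2 0.065). NR1D2 had 91.7, 103 and 121 in control and 149, 132 and 124 in cisplatin libraries. Its libraries nearly met, and the log2 fold change of 0.37 ± 0.11 (edgeR adjusted p = 0.020, DESeq2 0.19) lost its call without Acis control replicate 1 (0.27), Acis control replicate 2 (0.34) or Acis cisplatin replicate 1 (0.28). PER3 had 525, 519 and 532 in control and 471, 453 and 469 in cisplatin libraries, with no overlap (-0.18 ± 0.05, edgeR adjusted p = 0.014, DESeq2 0.073), and the call was lost with library totals alone (-0.12) and without Acis cisplatin replicate 2 (-0.16).

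CLOCK was not called in Acis, with 1019, 1131 and 1108 normalised counts in control and 1023, 1086 and 961 in cisplatin libraries. The groups overlapped, and the log2 fold change was -0.09 ± 0.05 (edgeR adjusted p = 0.20). It would have been called without Acis control replicate 1 (-0.13, adjusted p = 0.048). PER1 had 765, 705 and 690 in Acis control and 755, 741 and 817 in Acis cisplatin, again overlapping (0.10 ± 0.06, adjusted p = 0.26). PER2 had 365, 369 and 378 and then 301, 364 and 357 (-0.12 ± 0.07, adjusted p = 0.22). CRY1 (-0.14 ± 0.06), CRY2 (0.11 ± 0.07), NR1D1 (0.07 ± 0.08) and ARNTL (-0.66 ± 0.33, on 8 to 19 counts a library) were not called, and CRY1 would have been without Acis cisplatin replicate 3 (-0.19, adjusted p = 0.034).

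**Figure D3:**
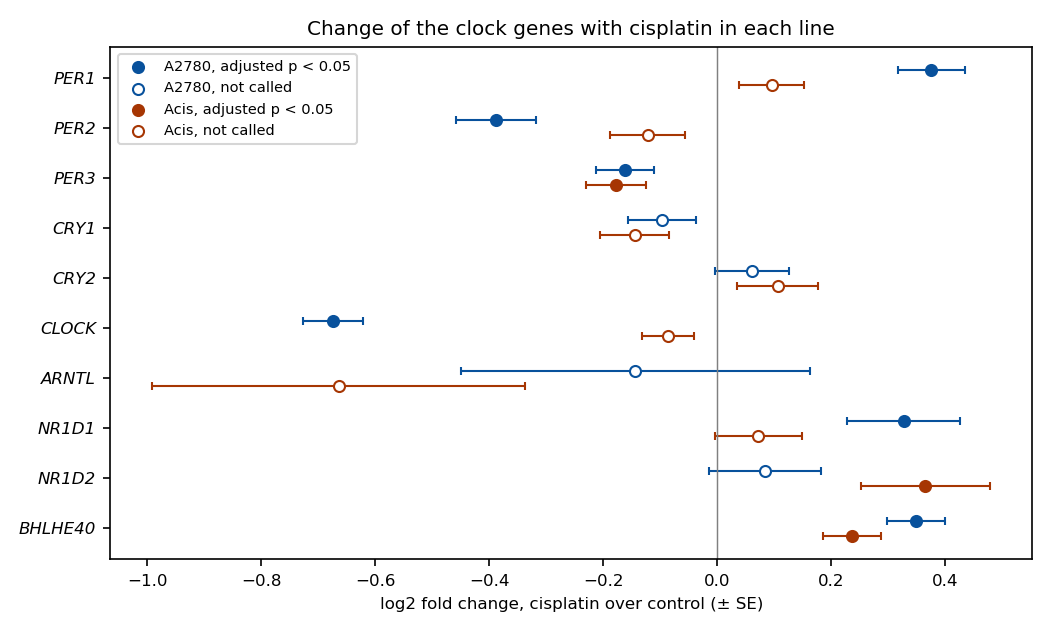
Log2 fold change of cisplatin over control (horizontal axis, ± SE from edgeR) for each clock gene in A2780 and in Acis, with filled points for an adjusted p under 0.05. CLOCK lies at -0.67 in A2780 and at -0.09 in Acis, and PER1 at 0.38 and 0.10.

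The difference between the lines in their response was tested as an interaction. CLOCK responded differently, by 0.59 ± 0.07 on the log2 scale toward a higher value in Acis (edgeR adjusted p = 1.5e-06), and this held in all 19 alternatives run. PER1 responded by 0.28 less in Acis (log2 difference -0.28 ± 0.08, adjusted p = 0.017), but DESeq2 gave 0.067 and the call was lost without A2780 control replicate 3 (-0.23), A2780 cisplatin replicate 1 (-0.20), Acis control replicate 1 (-0.23) or Acis cisplatin replicate 2 (-0.25). PER2 missed the threshold (0.27 ± 0.10, adjusted p = 0.053) and passed it without A2780 cisplatin replicate 1 (0.33) or Acis cisplatin replicate 1 (0.35). NR1D1 (-0.26 ± 0.13) passed only without A2780 cisplatin replicate 2 (-0.36). That makes 1 of 10 higher and 1 of 10 lower, against 13.4% and 5.48% of all tested genes. Higher interactions made up 71.0% of all such calls with TMM scaling and 48.2% with library totals alone, under which the same number of clock genes, 1 and 1, was called. For NR1D2, called in Acis and not in A2780, the interaction was not called (adjusted p = 0.21), so no difference between the lines was shown. BHLHE40 was called in both lines, and its interaction was not (adjusted p = 0.34).

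Before treatment the lines already differed in several clock genes. Acis control was higher than A2780 control in NR1D1, PER1, CLOCK and BHLHE40 and lower in NR1D2 and CRY2, 4 of 10 higher and 2 of 10 lower, against 28.2% higher and 30.6% lower among all tested genes. None passed an absolute log2 fold change of 1, against 19.1% of all tested genes, but NR1D1 lay just under it. Without 1 library its value ran from 0.93 to 1.01, and an estimate of the reads before duplicate removal gave 1.01. NR1D1 had 256, 232 and 259 normalised counts in Acis control against 128, 124 and 128 in A2780 control. Every Acis library stood well above every A2780 library, at a log2 fold change of 0.97 ± 0.09 (edgeR adjusted p = 4.0e-10), 1.97 times the A2780 level. NR1D2, which shares its targets, was lower in Acis, at 91.7, 103 and 121 against 162, 142 and 130 (-0.47 ± 0.11, edgeR adjusted p = 0.00069). PER1 was 1.27 times as high (0.34 ± 0.06, adjusted p = 2.0e-05) and CLOCK 1.23 times (0.29 ± 0.05, adjusted p = 4.8e-06). CRY2 was lower (-0.22 ± 0.07, adjusted p = 0.0081, DESeq2 0.087). BHLHE40 was only just called (0.14 ± 0.05, adjusted p = 0.034), and the call was lost in DESeq2, with no filter (0.13), with the closest pair of replicates merged (0.13) and without A2780 control replicate 1 (0.15), replicate 2 (0.10) or replicate 3 (0.13), or Acis control replicate 1 (0.11) or replicate 3 (0.10). PER2, PER3, CRY1 and ARNTL were not called.

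After treatment the lines differed in CLOCK, NR1D1 and PER2, which were higher in Acis, and in CRY2, which was lower, 3 of 10 and 1 of 10 against 31.8% and 31.2% of all tested genes. None passed an absolute log2 fold change of 1, against 19.2%. CLOCK was 1.84 times as high in Acis cisplatin as in A2780 cisplatin (0.88 ± 0.05, edgeR adjusted p = 1.4e-14), NR1D1 1.65 times (0.72 ± 0.08, adjusted p = 1.9e-08) and PER2 1.28 times (0.35 ± 0.07, adjusted p = 9.0e-05). CRY2 (-0.18 ± 0.07, adjusted p = 0.023, DESeq2 0.13) lost its call without A2780 cisplatin replicate 1 (-0.12), Acis cisplatin replicate 1 (-0.16) or Acis cisplatin replicate 2 (-0.16). PER1 would have been called higher without A2780 cisplatin replicate 1 (0.14), and NR1D2 lower without Acis cisplatin replicate 1 (-0.26). The comparisons share their control and treated libraries and are not independent of each other.

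The 4 genes whose group means spanned at least 0.5 on the log2 scale each had a nearest gene by the root mean square difference of centred log2 group means, over 4 groups and 9331 candidate genes. For CLOCK it was HERC2P3 (0.032), for NR1D1 LZTS3 (0.027), for NR1D2 RPL32P3 (0.019) and for ARNTL H2AW (0.037). ARNTL had 8 to 19 raw counts in each library and was called in no comparison, so its span and its match rest on imprecise means.

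Genes that stand in for the activators were measured beside them. Of 5 such genes, 4 had a row and 3 were tested (ARNTL2, NPAS2 and RORB), and all 3 fell in A2780. In Acis, NPAS2 fell and ARNTL2 was not called, while RORB was too low there for a fall to be seen. For these and the lists that follow, the shares over all tested genes were 21.2% higher and 28.2% lower in A2780 and 9.35% and 12.4% in Acis. ARNTL2, the paralogue of ARNTL, had 52.5, 61.8 and 56.8 normalised counts in A2780 control and 36.7, 36.0 and 34.5 in A2780 cisplatin (-0.67 ± 0.15, edgeR adjusted p = 0.00067). In Acis it stood at 466, 516 and 520 in control and 494, 496 and 477 in cisplatin libraries, so it was higher in Acis control by 3.13 on the log2 scale (adjusted p = 1.5e-22) and its response differed between lines (interaction 0.64, adjusted p = 0.0058, DESeq2 0.055). Set per length, ARNTL2 made up 81.0% of the ARNTL and ARNTL2 sum in A2780 control and 97.2% in Acis control. NPAS2, the paralogue of CLOCK, averaged 34.6 and 19.9 in A2780 control and cisplatin, and 210 and 141 in Acis. It fell in both lines (-0.79, adjusted p = 0.0036, and -0.57, adjusted p = 1.9e-05), yet made up only 3.48% of the CLOCK and NPAS2 per-length sum in A2780 control and 15.2% in Acis control. RORB, an activator of ARNTL, averaged 53.7 and 28.4 in A2780 (-0.92, adjusted p = 4.7e-05) and was at or under 1.14 in every Acis library.

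Of 8 repressors and outputs of the loop, 7 were tested, and 3 rose and 1 fell in A2780, while none was called in Acis by edgeR (1 at an unadjusted p under 0.05) or DESeq2 (0), although library totals gave 2 higher there and leaving out Acis cisplatin replicate 2 gave 1. CIART, a repressor of the CLOCK and ARNTL dimer, had 97.4, 94.6 and 94.3 in A2780 control and 180, 164 and 160 in A2780 cisplatin (0.82 ± 0.10, edgeR adjusted p = 1.6e-07), against averages of 116 and 136 in Acis. The response differed between lines (interaction -0.59, adjusted p = 0.0053, DESeq2 0.068). NFIL3, a repressor acting on D-boxes, averaged 35.5 and 69.6 in A2780 (0.97, adjusted p = 2.3e-05) and stood at 10.7 to 12.8 and 13.8 to 23.1 in Acis (0.57, not called), with an interaction that was not called (-0.39, adjusted p = 0.52). DBP, an activator on the same element, averaged 150 and 183 in A2780 (0.28, adjusted p = 0.011, DESeq2 0.13), a call that was lost without A2780 control replicate 2 (0.19) or replicate 3 (0.24). NAMPT, a clock output in NAD synthesis, went from 357 to 315 (-0.18, adjusted p = 0.033), and its call was lost in DESeq2 (0.13), with library totals alone (-0.07), with a mean of at least 50 counts (-0.12) and without A2780 control replicate 1 (-0.17) or replicate 3 (-0.19), or A2780 cisplatin replicate 1 (-0.12) or replicate 3 (-0.19), while leaving out A2780 cisplatin replicate 2 gave 2 lower genes in the list. BHLHE41, the paralogue of BHLHE40, was chosen after its values were seen. It was at 45.4 to 66.5 in A2780 control and at or under 1.07 in every Acis library, so it passed the filter through A2780. In Acis it was too low for a fall with cisplatin to be seen, and no rise was called (0.67 ± 1.30, edgeR adjusted p = 0.80).

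Of 12 kinases, ligases and other factors that set the stability of the clock proteins, 11 were tested. Cisplatin lowered 6 of them in A2780, and in Acis it lowered 3. GSK3B fell from 899 to 682 in A2780 (-0.40, edgeR adjusted p = 2.0e-08), and its Acis means were 837 and 655 (-0.35, adjusted p = 1.4e-06). FBXW11 (-0.39 and -0.24) and BTRC (-0.31 and -0.33), paralogous ligase subunits that mark PER proteins for decay, fell in both lines. Gene length, which moved with the change over all tested genes (given below), was not set beside these values. CSNK2A1, a kinase subunit, fell in A2780 (-0.27, adjusted p = 1.9e-07) and not by call in Acis (-0.07, adjusted p = 0.13), with an interaction of 0.20 (adjusted p = 0.0029, DESeq2 0.072), and it would have been called in Acis with RLE scaling (-0.09) and without Acis control replicate 1 (-0.10). Of 4 damage and fork genes tied to the clock, ATM alone fell, from 1399 to 918 in A2780 (-0.61, edgeR adjusted p = 6.1e-12), while TIMELESS, TIPIN and CHEK2 were not called. The Acis means of ATM were 1429 and 1309 (-0.13, edgeR adjusted p = 0.027). That Acis call was lost in 4 of 20 alternatives. Among them were library totals alone (-0.07) and leaving out Acis control replicate 3 (-0.10) or Acis cisplatin replicate 1 (-0.09). Leaving out Acis control replicate 1 gave 2 lower genes of the 4 in A2780.

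Gene length moved with the direction of change. Among all tested genes in A2780, the median log2 fold change was 0.21 for genes under 10 kb and 0.09 for 10 to 30 kb. It was -0.15 for 30 to 100 kb and -0.39 for 100 to 300 kb. The clock genes that rose were short, BHLHE40 at 5.89 kb, NR1D1 at 7.80 kb and PER1 at 16.0 kb. Those that fell were longer, PER2 at 46.1 kb, PER3 at 60.9 kb and CLOCK at 119 kb. CLOCK lay below the lower quartile of its class (-0.56) and PER2 below that of its class (-0.31), PER1 lay above the upper quartile of its class (0.26), and BHLHE40, NR1D1 and PER3 lay inside theirs. CRY1, at 102 kb nearly as long as CLOCK, lay above the upper quartile of that class (-0.20), as did ARNTL (-0.14). CRY2 (0.06 ± 0.07) and NR1D2 (0.08 ± 0.10) lay above that of the 30 to 100 kb class (0.01), so the point values of the 4 uncalled genes all lay above the upper quartile of their class. The place of ARNTL was imprecise, with an SE of 0.31 and values from -0.23 to -0.03 without 1 library, which cross that quartile. In Acis the medians ran from 0.09 for genes under 10 kb to -0.17 for 100 to 300 kb, and NR1D2 and CRY2 lay above the upper quartile of their class (0.09). PER2 and PER3 lay below the lower quartile of that class (-0.12), and ARNTL (-0.66 ± 0.33) below that of the 100 to 300 kb class (-0.31). Without 1 library ARNTL ran from -0.94 to -0.29 in Acis, across that quartile. Genes of the further lists, with GSK3B, FBXW11, BTRC and ATM among them, were not placed by length. The part of length in the changes of either set was not tested.

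**Figure D4:**
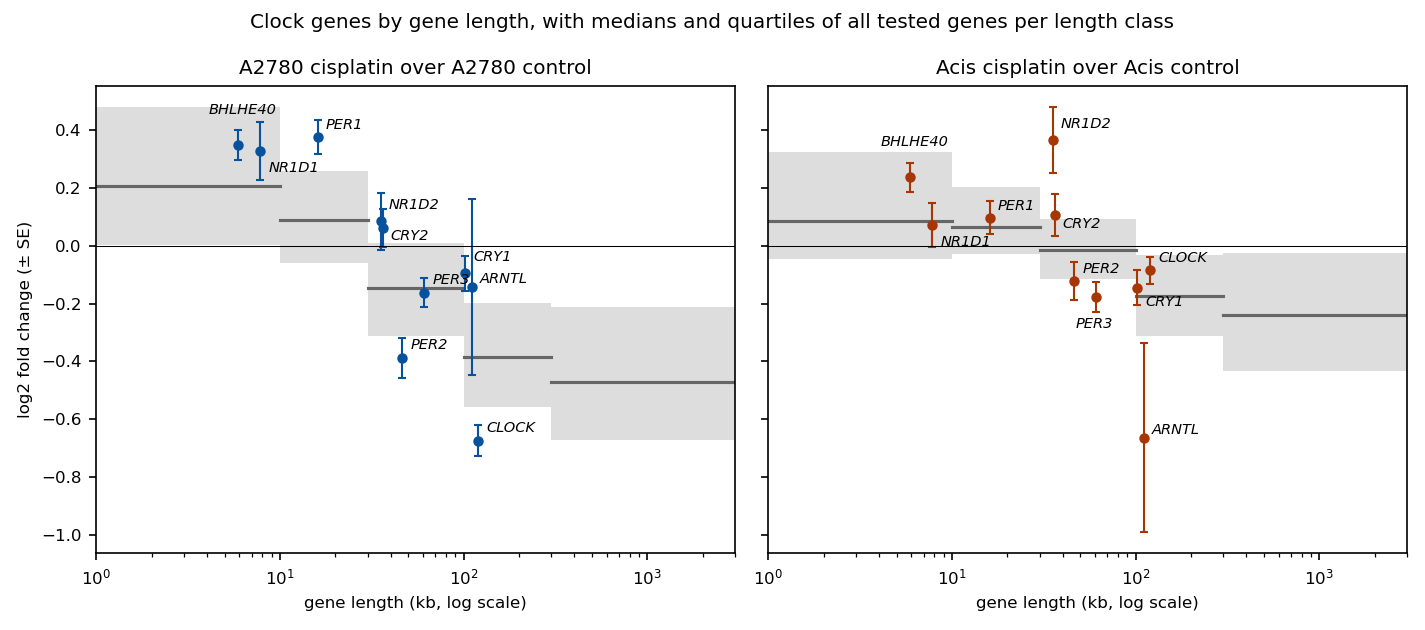
Log2 fold change with cisplatin (vertical axis, ± SE) against gene length (horizontal axis, kb, log scale) for the 10 clock genes in A2780 and Acis. Grey bands and lines are the quartiles and median of all tested genes in each length class, the outer classes drawn to the axis ends. CLOCK at 119 kb lies below the band in A2780 (-0.67 against a median of -0.39) and above the median in Acis.

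Peaks of open chromatin lay near a start of each of these genes in all conditions. In ATAC-seq, which cuts accessible DNA, each condition had 1 deposited peak list of 24485 to 34979 peaks (hg38), so peak values carry no error. All 10 genes had a listed peak within 1000 bases of an annotated start in each of the 4 lists, against 77.8% of tested genes in untreated and 78.9% in treated A2780, and 71.1% in untreated and 75.4% in treated Acis. These peaks did not always cover a start. No PER3 peak held an annotated start in any list, and no PER2 peak did in A2780 cisplatin. The NR1D2 peak lay 568 to 798 bases from the start of the canonical transcript. ARNTL, whose RNA was near the floor, had a strong peak over its start, chr11:13277231-13277840 in A2780 control, with a fold enrichment of 19.0 that exceeded 89.1% of that list. After cisplatin it was 17.0, and the Acis lists gave 20.2 without and 18.7 with cisplatin. This peak covered all 300 bases of the ARNTL window printed above in 3 lists and 284 in A2780 cisplatin.

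PER1 had a pair of start peaks in every list. In A2780 control the one over the RefSeq start, chr17:8152376-8152717, had a fold enrichment of 5.80, and the one over upstream annotated starts, chr17:8156283-8157075, had 13.6. The E-box of the printed PER1 window lay in the weaker peak. The upstream peak stood at 10.1 after cisplatin, and in Acis at 14.9 before and 16.9 after it. CLOCK had a broad peak, chr4:55545736-55547529 in A2780 control, at 10.4 there and 6.48 after cisplatin, and in Acis at 8.32 before and 6.72 after it. The log2 ratio of cisplatin to control was -0.68 in A2780 and -0.31 in Acis, where all tested genes with a start peak in both lists had medians of -0.26 and -0.03. PER3 had the lowest ratio of the 10 in both lines, -0.80 and -0.39. BHLHE40 went from 8.44 to 6.50 in A2780 with cisplatin, and its Acis lists gave 10.3 and 9.98, while its RNA rose in both. Its log2 ratio of -0.38 in A2780 lay inside the quartiles of all genes (-0.43 and -0.11). In Acis its ratio of -0.04 was near the median of all genes. NR1D2 was the only one of the 10 with a higher value after cisplatin in A2780, 13.2 against 10.8. NR1D1, with more RNA in Acis, had 13.5 in Acis control against 9.41 in A2780 control, a log2 ratio of 0.52 where all genes had a median of 0.14 and an upper quartile of 0.26. CLOCK, also with more RNA in Acis control, had a lower peak there.

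**Figure D5:**
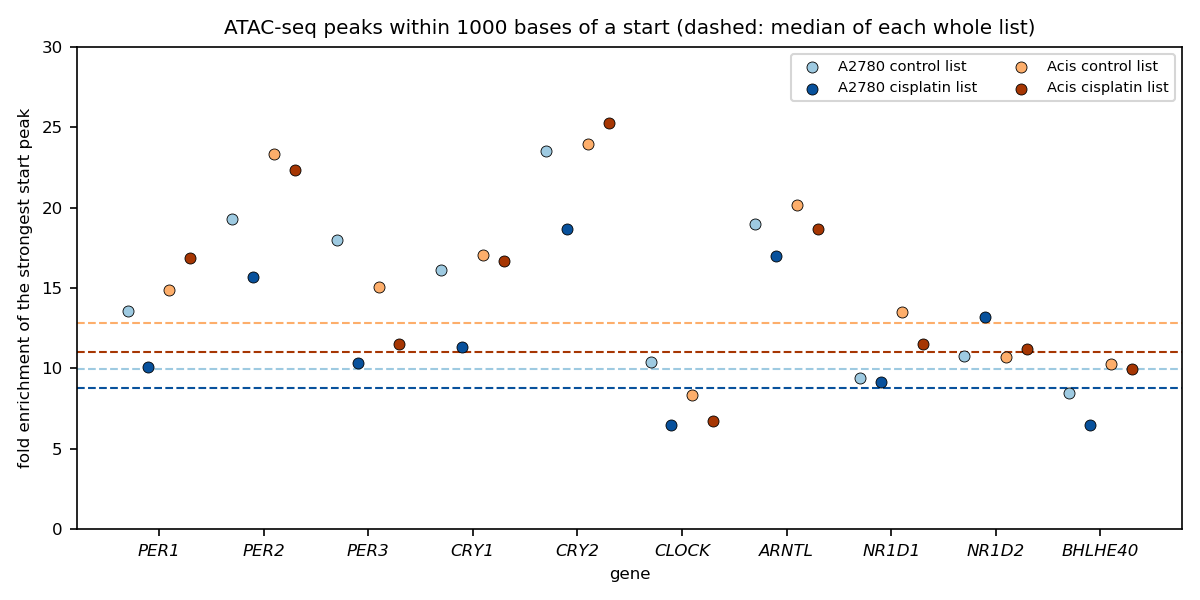
Fold enrichment (vertical axis, from 0) of the strongest ATAC-seq peak within 1000 bases of a start for each clock gene in the 4 peak lists, with dashed lines for the median of each whole list. ARNTL lies between 17.0 and 20.2, above all 4 medians, and CLOCK between 6.48 and 10.4.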

How the data were processed

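Total RNA from 12 libraries was sequenced after ribosomal RNA depletion. The authors aligned single-end reads to hg38 with STAR 2.7.3, removed duplicates with Picard and counted reads in exons by strand with HTSeq 0.11.1, and the deposited values are raw counts. Removing single-end duplicates allows about 1 read per start position, so counts of dense genes are compressed. The clock genes had at most 0.155 counts per exon base, and an estimate of the reads before removal, chosen after seeing the data, moved no log2 fold change by more than 0.031. The deposited ATAC-seq peak lists hold, per the file headers and labels, a score, a fold enrichment as a ratio and −log10 p and q from MACS2, with 3 control or 2 cisplatin replicates overlapped into 1 list. XR-seq samples are not analysed here.

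Counts were tested with edgeR 4.0.16 (R 4.3.3; TMM scaling, filterByExpr, quasi-likelihood test over all 12 libraries, Benjamini-Hochberg), and calls were made at an adjusted p under 0.05. Normalised counts divide each raw count by its TMM-scaled library size and multiply by the mean total. DESeq2 1.42.0 and other settings were alternatives. Gene models came from GENCODE 44, which gave a model for 23513 genes. Counts limit precision for ARNTL most. The members and lists were chosen with earlier results of these data known. Named genes were all 10 members and up to 4 per further list by smallest adjusted p in A2780. Replicate pairs differed by 0.730 to 1.53 times counting noise, and same-numbered libraries did not deviate together (correlations -0.20 to 0.28). Results that rest on some items of the further lists are not reported here.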

Additional observations from a re-analysis of the deposited data

Results flagged for a closer look

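For 7 genes the response to cisplatin differed between A2780 and Acis by the interaction test (edgeR adjusted p under 0.05), given as the log2 response in Acis minus that in A2780. They came from the 10 clock genes and the 3, 7, 11 and 4 tested genes of the activator, output, stability and damage lists, a share close to that of all tested genes (13.4% higher and 5.48% lower). Among the 10 clock genes these were CLOCK, at 0.59 (-0.67 in A2780 and -0.09 in Acis), and PER1, at -0.28 (0.38 and 0.10). Among the further genes they were ARNTL2 at 0.64, CIART at -0.59, CSNK2A1 at 0.20, PRKAA1 at 0.25 and ATM at 0.49. In DESeq2 the adjusted p of PER1, ARNTL2, CIART, CSNK2A1 and PRKAA1 was between 0.055 and 0.22. PRKAA1, a kinase subunit that marks CRY proteins, is named here for its interaction after its values were seen, and its call was lost with library totals alone (0.19), with a mean of at least 50 counts (0.20), with the closest pair of replicates merged (0.26) and without A2780 control replicate 1 or 3, A2780 cisplatin replicate 1, Acis control replicate 1 or Acis cisplatin replicate 2 (0.20 to 0.25). Why the lines differ was not tested.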

How the results depend on the processing

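With a required absolute log2 change of 1 or more, each count fell to 0, although NR1D1 lay just under that threshold between control lines. DESeq2 gave 0 higher and 0 lower in Acis with cisplatin, 1 lower for Acis control against A2780 control, 0 lower for Acis cisplatin against A2780 cisplatin and 0 lower for the interaction. With library totals alone, 0 were lower in Acis and 2 were lower for Acis cisplatin against A2780 cisplatin, as with a mean of at least 50 counts (2). With no filter, 2 interactions were higher, and BHLHE40 lost its call between control lines (0.13), as with the closest pair of replicates merged (0.13). Without 1 library at a time, counts ranged from 1 to 2 higher and 0 to 2 lower in Acis, 0 to 1 lower for Acis cisplatin against A2780 cisplatin, and 1 to 2 higher and 0 to 2 lower for the interaction. The cause was not tested.

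No value that changed sign was called with the settings reported. PER3 in Acis cisplatin against A2780 cisplatin was 0.0033 and became -0.0097 with DESeq2, -0.017 with RLE, -0.052 with library totals, -0.046 with a mean of at least 50 counts, -0.014 with only the compared groups, -0.0099 with the closest pair merged and -0.044 to 0.039 without 1 library. With library totals, CRY1 became 0.021 in A2780 with cisplatin and -0.031 between treated lines, BHLHE40 -0.029 between treated lines and the CRY2 interaction -0.018. With a mean of at least 50 counts, CRY1 became -0.025 and BHLHE40 -0.023 between treated lines and the CRY2 interaction -0.0043. With no filter the PER3 interaction became 0.0029. Without 1 library, the ranges were -0.025 to 0.041 for PER3 and -0.24 to 0.41 for ARNTL between control lines, -0.018 to 0.10 for CRY1 and -0.0027 to 0.045 for BHLHE40 between treated lines, and -0.063 to 0.021 for PER3 and -0.093 to 0.029 for CRY1 in the interaction.

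With the longest transcript, the per-length share of PER1 was 47.4% in A2780 control and 52.6% in Acis control, and that of CRY1 62.5% and 67.2%. Searching the gene strand alone left 1 gene with a D-box. A fit with the replicate number as a block changed no call of the 10 genes. It gave 7861 calls over all genes in A2780 with cisplatin against 7798 without the pairing. Over all genes, DESeq2 made 5461 calls there, 1915 in Acis and 1071 for the interaction, against 7798, 3436 and 2976 by edgeR. Library totals moved the median change with cisplatin over all A2780 tests from -0.01 to 0.10. ARNTL is limited by its 8 to 19 counts per library.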
